A study of Mus musculus with 8 samples.

Results

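The translation initiation factor genes described here are those whose symbol opens with Eif and a digit. Of 54 such genes among the 23183 genes of the count data, 52 had at least 10 counts in 4 or more libraries and were taken as members. Eif3j1, with 2 to 4 counts per library, and Eif4e1b, with 0 or 1, did not reach that minimum, and the Y-linked Eif2s3y (368 to 571 counts) was left out by definition. The members were grouped by factor number into eIF1 (5 genes), eIF2 (5), the exchange factor eIF2B (5), the eIF2 kinases (4), eIF3 (13), eIF4 (12), the eIF4E-binding proteins or 4E-BPs (3), eIF5 (4) and eIF6 (1).

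The cells were group 2 innate lymphoid cells (ILC2s), lymphocytes that respond to epithelial cytokines and make type 2 cytokines, from the lungs of C57BL/6 mice (wild-type C57BL/6 J aged 6 to 10 weeks in the methods). They were recovered from mice given IL-33 and grown in IL-2, IL-7 and IL-33, so both groups carried this activation. The treated group received 5 µM Yoda1, a small-molecule agonist of the mechanosensitive channel Piezo1, and the control group received the vehicle, 0.1% DMSO, each for 3 h with 4 libraries of poly(A) mRNA. Because the study asks how Piezo1 acts on protein synthesis in ILC2s, the comparison made here is whether the mRNAs of the initiation machinery differed between these groups, and mRNA was the only readout.

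Initiation begins when eIF2, carrying GTP, brings the initiator tRNA to the small ribosomal subunit, where eIF1, eIF1A, eIF3 and eIF5 complete the scanning complex. The eIF4 group binds the mRNA cap and unwinds the leader, and the 4E-BPs block cap binding until the kinase mTOR phosphorylates them. On recognition of the start codon eIF1 leaves, eIF5 stimulates GTP hydrolysis by eIF2, and eIF2B recharges eIF2 for the next round unless an eIF2 kinase has phosphorylated it.

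Libraries held between 12438009 and 19534653 counts, and members took 1.30% to 1.35% of the counts in DMSO libraries and 1.32% to 1.35% in Yoda1 libraries. All 12 ILC2 markers were detected, and their summed level was 17176 to 17660 CPM (for markers, counts relative to the unscaled library total) with DMSO and 19017 to 19440 with Yoda1, without overlap. The cytokine genes Il13 (5283 to 6752 CPM over both groups) and Il5 (3265 to 3701) and the receptor gene Il2ra (3424 to 3825) made up most of that sum. Which of the markers carried the difference was not tested, so the sum is no measure of ILC2 purity. Summed markers of other cells overlapped between the groups, at 70.3 to 84.4 CPM for 6 T cell genes, 376 to 428 for 4 NK genes (mostly Gzma), 74.8 to 89.4 for 4 mast cell genes (mostly Kit), and 214 to 227 for 4 stromal or endothelial genes (mostly Pecam1). The sums were 2.58 to 4.17 for 6 macrophage or dendritic genes and 3.56 to 5.30 for 4 epithelial genes. For 4 B cell genes the sum was 5.36 to 7.13, mostly Cd79b (70 to 128 counts). Ms4a1, Csf1r, Lyz2, Mrc1, Fcer1a, Sftpc, Krt8 and Cdh5 had at most 3 counts in any library. Whether the replicates came from separate mice or cultures is not stated in the sources used here, so p-values measure the spread between these libraries, which may be technical.

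With Yoda1, 5 of the 52 members passed the test, but of these only Eif1 and Eif5 also did so in each of 15 other settings. Eif1, Eif1b and Eif2a rose, Eif1 the most at 1.31-fold, and Eif5 and Eif4ebp1 fell to 0.903 and 0.845 of the DMSO level, while 47 members did not pass the test (edgeR's quasi-likelihood test, Benjamini-Hochberg adjusted p under 0.05 over 12239 genes). Of all genes tested, 10.9% were called, with 6.04% higher and 4.84% lower, and the members' 9.62% lay close to that share. Among the 9426 genes tested within the members' range of expression, 12.5% were called. The median log2 fold change of the members was 0.019 against -0.0053 for all genes, and 31 of 52 members lay above 0, but the members' median turned to -0.0026 with scaling by library size alone and to -0.012 with upper-quartile factors. In bulk RNA, fewer cells of one type and less RNA per cell cannot be told apart.

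**Figure D1:**
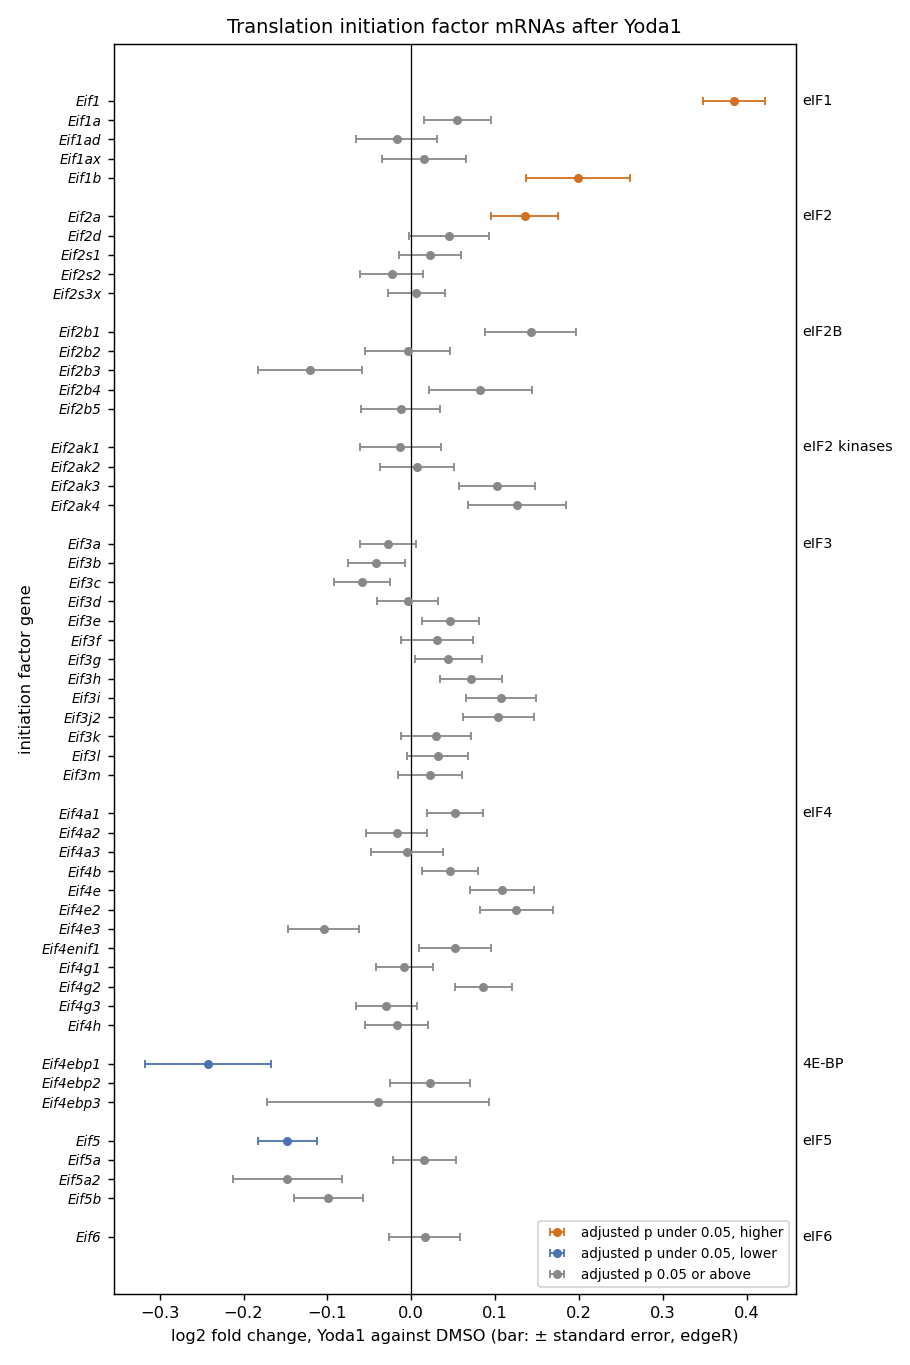
Log2 fold change (Yoda1 against DMSO, 4 libraries each) of the 52 initiation factor genes on the horizontal axis, grouped by factor, with bars for the standard error from edgeR. Colour marks the 3 genes called higher (Eif1, Eif1b, Eif2a) and the 2 called lower (Eif5, Eif4ebp1), and the other 47 points lie between -0.15 and 0.14.

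Without regard to the test, the 4 Yoda1 libraries lay entirely above the 4 DMSO libraries for 7 members and entirely below them for 3, which is 10 of 52. Over all genes tested 15.5% did not overlap, 8.44% higher and 7.05% lower. The 7 higher members were Eif1, Eif1b, Eif2a, Eif2b1, Eif4a1, Eif4e and Eif4g2, and the 3 lower members were Eif3c, Eif4e3 and Eif5. At an unadjusted p under 0.05 by edgeR there were 16 members of 52, against 25.3% of all genes tested.

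The eIF1 group held the member with the highest fold change of the family. Eif1 (chr11:100319885-100322096, plus strand, GRCm38, 4 exons) encodes the factor that keeps the scanning ribosome from settling on a wrong start codon. Its level was 478, 466, 434 and 446 CPM (for members and all genes below, relative to the TMM-scaled library total) in DMSO replicates 1 to 4 and 604, 577, 615 and 587 CPM in Yoda1 replicates 1 to 4. Each Yoda1 library was above each DMSO library, and the lowest Yoda1 value stood well above the highest DMSO value. The mean moved from 456 ± 19.7 CPM to 596 ± 16.7 CPM (SD, n = 4), or 0.38 on the log2 scale (SE 0.0367, edgeR adjusted p = 8.33e-09), on 6032 to 11414 counts per library. The call held in each of 15 other settings (2 scalings, 2 filters, DESeq2, limma-voom, a replicate block and each of the 8 libraries left out in turn), with a log2 fold change of 0.35 to 0.41.

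Eif1b (chr9:120492232-120495330, plus strand, 4 exons), a paralog of Eif1 on another chromosome, had 24.6, 24.3, 23.4 and 25.1 CPM in the DMSO replicates and 27.5, 26.8, 29.7 and 27.8 CPM in the Yoda1 replicates. The groups did not overlap here either, with a narrower gap than for Eif1. The log2 fold change was 0.20 (SE 0.0622, edgeR adjusted p = 0.0360), from 24.3 ± 0.698 to 27.9 ± 1.24 CPM (SD, n = 4), on 339 to 540 counts. The call was lost in 9 of 15 other settings (adjusted p 0.0335 to 0.108 over the 15), among them DESeq2 (adjusted p = 0.0644) and the fits without DMSO replicate 2 (0.0803) or 3 (0.0962) or without Yoda1 replicate 1 (0.0614), 3 (0.108) or 4 (0.0782). The exons of Eif1b share 143 bases with the opposite-strand gene D830035M03Rik, and since it is not given whether the counting used strand, reads of that stretch cannot be told apart.

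The coding sequences of Eif1 and Eif1b are both 342 bases long and differ at 64 positions, an identity of 81.3%, with no identical run longer than 25 bases. Their first 150 coding bases are shown because the separate rises of the paralogs rest on reads that can be assigned to each, and capitals mark the 25 positions where they differ (GENCODE M21 transcripts, GRCm38, plus strand).
Eif1: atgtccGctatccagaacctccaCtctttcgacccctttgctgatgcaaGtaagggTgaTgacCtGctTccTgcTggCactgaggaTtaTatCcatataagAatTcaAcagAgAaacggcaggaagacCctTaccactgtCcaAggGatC
Eif1b: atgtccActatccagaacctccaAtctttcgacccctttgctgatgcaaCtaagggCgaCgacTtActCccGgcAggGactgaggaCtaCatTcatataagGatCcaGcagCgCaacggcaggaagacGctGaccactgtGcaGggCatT
Eif1b was not among the near copies of Eif1, which were set at 95% identity over at least 100 bases. The transcripts of 13 other genes met that limit, of which 1, Emd, was in the count data. A transcript of Emd shares 662 bases with Eif1 at 96.7% identity. Emd had 736 to 1231 counts per library and went from 59.6 ± 2.99 to 62.7 ± 2.24 CPM (SD, n = 4), which is 0.076 on the log2 scale (edgeR adjusted p = 0.335). The level of Eif1 may therefore include reads of these copies, whose part in its change was not tested.

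The remaining eIF1 members did not pass the test. Eif1a and Eif1ax, which encode forms of eIF1A, a factor at the decoding site, had log2 fold changes of 0.055 (edgeR adjusted p = 0.420) and 0.015 (0.890). Eif1ad had -0.018 (0.867).

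The start codon context was read for the members because eIF1 and eIF5 set how strictly that context is judged. In a strong context a purine lies at the third base before the ATG and a G directly after it. The contexts of the 5 called members and of Eif3b are shown with 10 bases before the codon and 3 after it, with the ATG in capitals (GENCODE M21 transcripts, all on the plus strand of GRCm38).
Eif1: atcgtatcgtATGtcc
Eif1b: ctagtgtcgcATGtcc
Eif3b: gcgcgggcccATGcag
Eif2a: ccgggacaagATGgcg
Eif5: ataagccaaaATGtct
Eif4ebp1: tgcaggagacATGtcg
These start codons lie at chr11:100320130-100320132 (Eif1), chr9:120492811-120492813 (Eif1b), chr5:140419361-140419363 (Eif3b), chr3:58526059-58526061 (Eif2a), chr12:111539616-111539618 (Eif5) and chr8:27260409-27260411 (Eif4ebp1). Eif1, Eif1b and Eif3b carried neither base, Eif5 and Eif4ebp1 carried the purine alone, and Eif2a carried both. Of the 51 members with a context that could be read, 22 carried both bases (43.1%) and 3 neither (5.88%), against 46.6% and 6.00% of 11114 coding genes tested. An ATG upstream of the start codon was present in 17 of the 51 (33.3%), against 52.7% of those genes, and the median leader was 126 bases long against 182.5. Eif5 had 5 upstream ATGs in a leader of 626 bases, the highest number among the members, and Eif1 had 1 in 245 bases. A context is a property of the annotated transcript, and initiation itself was not measured.

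In the eIF5 group 1 member was called lower, and 3 of 4 members had log2 fold changes below 0 (all 4 below 0 with scaling by library size alone or upper-quartile factors). Eif5 (chr12:111538016-111546752, plus strand, 12 exons) encodes the protein that stimulates GTP hydrolysis by eIF2 on the start codon. It had 349.6, 327, 321 and 338 CPM in the DMSO replicates and 303, 299, 302 and 302 CPM in the Yoda1 replicates. All Yoda1 libraries were below all DMSO libraries and lay close together. The mean fell from 334 ± 12.7 to 301 ± 1.77 CPM (SD, n = 4), or -0.15 on the log2 scale (SE 0.0353, edgeR adjusted p = 0.00574), on 3749 to 5977 counts. The call held in each of 15 other settings, with log2 fold changes from -0.18 to -0.12. The Eif5 exons contain the 127 bases of the small nucleolar RNA Snora28.

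The other eIF5 members did not pass the test. Eif5b, the GTPase that joins the ribosomal subunits, had a log2 fold change of -0.099 (adjusted p = 0.126), and was called lower with upper-quartile factors (0.0364) and without Yoda1 replicate 2 (0.0467), in a range of 0.0364 to 0.466 over the 15 settings. Eif5a2 had -0.15 (0.149) and Eif5a, the abundant paralog that helps the ribosome past difficult peptide bonds, had 0.015 (0.8495).

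**Figure D2:**
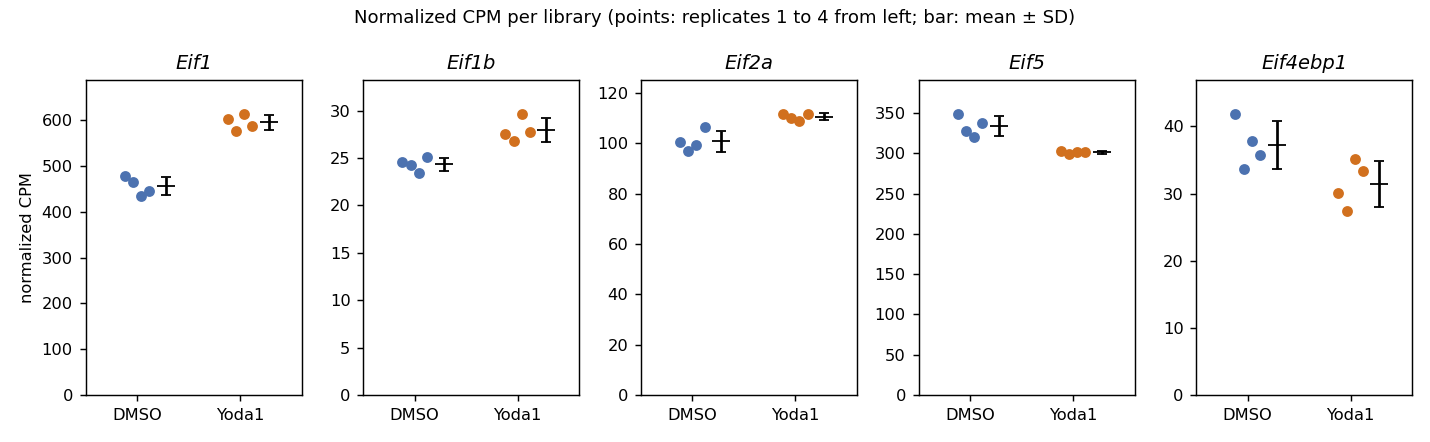
Normalized CPM (vertical axes from 0, a scale for each gene) of the 5 members past the test, with replicates 1 to 4 as points and the mean ± SD beside them. Yoda1 points lie above all DMSO points for Eif1, Eif1b and Eif2a and below them for Eif5, and the groups overlap for Eif4ebp1.

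Eif4ebp1 (chr8:27260329-27276674, plus strand, 3 exons) encodes 4E-BP1, the repressor of cap binding that mTOR inactivates. Its level was 41.9, 33.6, 37.8 and 35.7 CPM in the DMSO replicates and 30.1, 27.4, 35.1 and 33.3 CPM in the Yoda1 replicates. Yoda1 replicate 3 lay above DMSO replicate 2, so the groups overlapped. Eif4ebp1 fell from 37.3 ± 3.55 to 31.5 ± 3.42 CPM (SD, n = 4), which is -0.24 in log2 (SE 0.075, edgeR adjusted p = 0.0403). A two-sided exact permutation test on its 8 levels gave p = 0.0571, where 0.0286 is the smallest p that 4 against 4 allow. The call was lost in 5 of 8 fits with 1 library left out, without DMSO replicate 1 (edgeR adjusted p = 0.0886), 3 (0.103) or 4 (0.0599) or Yoda1 replicate 1 (0.119) or 2 (0.111), and the range over all 15 other settings was 0.00248 to 0.119. Its paralogs, which bind eIF4E in the same way, did not pass the test. Eif4ebp2 had 56.9 CPM with DMSO and 57.8 with Yoda1 (log2 fold change 0.022, edgeR adjusted p = 0.826), and Eif4ebp3 had 6.76 and 6.65 CPM (-0.040, 0.893) on 72 to 159 counts. The exons of Eif4ebp3 share 501 bases (67.3%) with AC115631.1, a same-strand gene absent from the count data. Reads of that stretch cannot be told apart.

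In the eIF2 group the rise was in Eif2a, which is not a subunit of eIF2 but a separate protein that can deliver initiator tRNA. Eif2a (chr3:58525821-58557501, plus strand, 14 exons) had 100.4, 97.0, 99.2 and 106.6 CPM in the DMSO replicates and 111.5, 110.0, 108.9 and 111.9 CPM in the Yoda1 replicates. The groups did not overlap, and DMSO replicate 4 came nearest to the Yoda1 libraries. The log2 fold change was 0.14 (SE 0.0401, edgeR adjusted p = 0.0261), from 100.8 ± 4.11 to 110.6 ± 1.35 CPM (SD, n = 4), on 1381 to 2175 counts. The call was lost in 7 of 15 other settings (adjusted p 0.0124 to 0.106 over the 15), among them upper-quartile factors (adjusted p = 0.0841) and the fits without DMSO replicate 2 (0.106) or 3 (0.0682) or without Yoda1 replicate 1 (0.0706) or 4 (0.0845). Its exons share 72 bases with Serp1 on the opposite strand, a gene of 7647 to 12547 counts.

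The 3 subunits of eIF2 itself did not pass the test. Eif2s1, the alpha subunit that the kinases phosphorylate, had a log2 fold change of 0.022 (adjusted p = 0.768), Eif2s2, the beta subunit, -0.023 (0.760), and Eif2s3x, the gamma subunit that binds GTP, 0.0058 (0.940). Eif2d, which encodes another tRNA-delivering protein, had 0.045 (0.608). None of the 5 eIF2B subunits was called, and their log2 fold changes ran from -0.12 (Eif2b3) to 0.14 (Eif2b1). Eif2b1, the regulatory alpha subunit, had 36.2, 33.7, 36.6 and 33.9 CPM with DMSO and 39.0, 37.7, 40.1 and 38.3 CPM with Yoda1. Its groups did not overlap, but its log2 fold change of 0.14 (SE 0.0543) missed the threshold (edgeR adjusted p = 0.0898).

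None of the 4 eIF2 kinases was called. Eif2ak4 (GCN2, the sensor of uncharged tRNA) had a log2 fold change of 0.13 (adjusted p = 0.172) and Eif2ak3 (PERK, the sensor of unfolded proteins in the endoplasmic reticulum) had 0.10 (0.149). Eif2ak1 (HRI, the heme sensor) had -0.013 (0.905) and Eif2ak2 (PKR, the sensor of double-stranded RNA) had 0.0069 (0.945).

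None of the 13 eIF3 subunits, which form the scaffold between the small ribosomal subunit and the mRNA, was called. Their log2 fold changes ran from -0.059 (Eif3c) to 0.11 (Eif3i) around a median of 0.031, and 9 of 13 lay above 0 (7 of 13, with a median of 0.00030, under upper-quartile factors). Eif3c had 494, 505, 484 and 485 CPM with DMSO and 465, 477, 467 and 480 CPM with Yoda1. The Yoda1 libraries were the lower ones without overlap, at a log2 fold change of -0.059 (SE 0.0337, edgeR adjusted p = 0.284). Eif3i, at 0.11 (edgeR adjusted p = 0.0955), was called higher without DMSO replicate 1 (0.0329) and without Yoda1 replicate 2 (0.0483), in a range of 0.0329 to 0.274. Besides Eif3c, Eif3a, Eif3b and Eif3d lay below 0, at -0.028, -0.042 and -0.0044. Eif3j2 is a single-exon copy whose sequence is 99.4% identical to Eif3j1 over 2379 bases, so the reads counted on Eif3j2 (1558 to 2731) and those of Eif3j1 cannot be told apart. The log2 fold change of Eif3j2 was 0.10 (edgeR adjusted p = 0.119).

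None of the 12 eIF4 members was called, although 4 of them did not overlap between groups (15.5% of all genes tested did not). Eif4e, the cap-binding protein, had 125, 122, 119 and 125 CPM with DMSO and 135, 127, 134 and 134 CPM with Yoda1. Yoda1 replicate 2 came nearest to the DMSO libraries, and the log2 fold change of 0.11 (SE 0.0382, edgeR adjusted p = 0.0662) passed only when that library was left out (adjusted p = 0.0454, with a range of 0.0454 to 0.196 over the 15 settings). Eif4e3, a paralog with weaker cap binding, had 113, 115.5, 103 and 103 CPM with DMSO and 102, 101, 101 and 101 CPM with Yoda1. The DMSO replicates were split into a higher and a lower pair, and the log2 fold change was -0.10 (SE 0.0427, edgeR adjusted p = 0.115). Upper-quartile factors gave 0.0370, the lowest adjusted p of the 15 settings, which reached 0.361. Eif4e2, which competes for the cap as part of a repressor, had a log2 fold change of 0.13 (adjusted p = 0.062) and was called higher without DMSO replicate 1 (0.0444), without Yoda1 replicate 2 (0.0153) and with no filter (0.0348), in a range of 0.0153 to 0.233.

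The scaffold and helicase mRNAs of the eIF4 group did not pass the test either. Eif4g2, which encodes a scaffold that lacks the eIF4E-binding site, had 1232, 1254, 1261 and 1305 CPM with DMSO and 1359, 1362, 1318 and 1323 CPM with Yoda1. The groups did not overlap, at a log2 fold change of 0.086 (SE 0.0336, edgeR adjusted p = 0.0985). Eif4a1, the helicase of the cap complex, had 872, 884, 874 and 851 CPM with DMSO and 914, 889, 914 and 893 CPM with Yoda1. The nearest libraries of the groups, DMSO replicate 2 and Yoda1 replicate 2, lay close together, and the log2 fold change was 0.052 (SE 0.0331, edgeR adjusted p = 0.338). Eif4g1 and Eif4g3, the scaffolds that do bind eIF4E, had log2 fold changes of -0.0084 (edgeR adjusted p = 0.913) and -0.030 (0.670). Eif4a2, Eif4a3, Eif4b, Eif4h and Eif4enif1 lay between -0.017 and 0.052. Eif6, which keeps the large ribosomal subunit from joining early, had 0.016 (0.861).

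Levels were compared between members per kilobase of the longest annotated transcript. They ran from 4.95 CPM per kb for Eif5a2 to 499.6 for Eif4a1, with Eif5a (487), Eif3h (476) and Eif1 (398) next below Eif4a1. Eif1 alone among these 4 differed between the groups past the test, at 345 ± 14.9 CPM per kb with DMSO and 451 ± 12.7 with Yoda1 (SD, n = 4). Besides Eif1, near copies at the same limit were found for Eif4a1 (3), Eif5a (2) and Eif3h (1), with 0 in the count data. The levels of these genes may include reads of the copies. The eIF3 subunits, which occur together in the complex, ranged from 54.2 to 476 CPM per kb around a median of 147.5. The eIF2B subunits lay at 8.10 to 33.9, the eIF2 kinases at 6.10 to 22.6 and the 4E-BPs at 9.02 to 17.2. The order at the top depends on that length. With the length of all exons of a gene in its place, 7 of the 10 highest members stayed among the 10 highest, but Eif4a1 came to 204.5 CPM per kb, below Eif3h (382), Eif5a (294), Eif1 (251) and Eif4b (214).

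**Figure D3:**
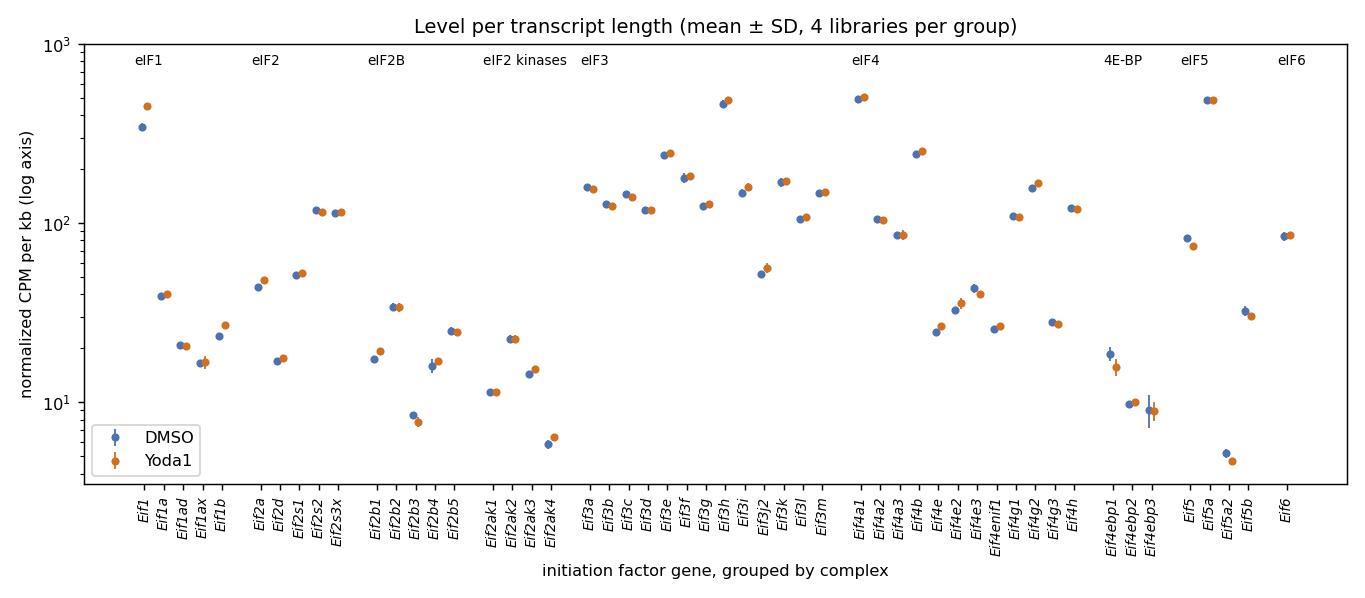
Level of each member per kb of its longest transcript (CPM per kb, log axis), with DMSO and Yoda1 means ± SD of 4 libraries, grouped by factor. The members span 4.95 to 499.6 CPM per kb, and the eIF2B, eIF2 kinase and 4E-BP genes lie at 33.9 CPM per kb or lower.

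Ratios of members within a library were compared next, since they do not depend on how libraries are scaled. Of 12 pairs of paralogs or direct partners 11 were tested, and 4 did not overlap between the groups, each with a two-sided exact permutation p of 0.0286, which became 0.0786 after adjustment over the 11, so that 0 passed. The ratio of Eif1 to Eif5, the factors with opposite roles at the start codon, was 1.37, 1.42, 1.35 and 1.32 in the DMSO replicates and 1.99, 1.93, 2.03 and 1.94 in the Yoda1 replicates. It was higher in all Yoda1 libraries, by 0.53 on the log2 scale (SE 0.0288) or 1.45-fold. Eif1 alone was higher and Eif5 alone lower without overlap in these libraries, so the separation of their ratio follows from those results. The ratio of Eif4e to Eif4ebp1 was 2.99, 3.63, 3.15 and 3.51 with DMSO and 4.49, 4.65, 3.82 and 4.01 with Yoda1. The groups of this ratio did not overlap, and the difference was 0.35 (SE 0.0936) or 1.28-fold. The groups of Eif4ebp1 alone overlapped, but Eif4e alone was already higher without overlap.

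The other 2 ratios without overlap differed by less. Eif1 to Eif1b went from 18.7 ± 0.738 to 21.3 ± 0.526 (SD, n = 4), a log2 difference of 0.19, with every Yoda1 library above every DMSO library although both paralogs were called higher. Eif4g1 to Eif4g2 went from 0.488 ± 0.00679 to 0.457 ± 0.00406, a log2 difference of -0.095, and Eif4g2 alone was already higher without overlap. The remaining 7 pairs overlapped, with differences from -0.27 (Eif4ebp1 to Eif4ebp2, exact permutation test, p = 0.0571) to 0.16 (Eif5a to Eif5a2, p = 0.0571). The pairs were listed with earlier results on Eif1 and Eif4ebp1 known.

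**Figure D4:**
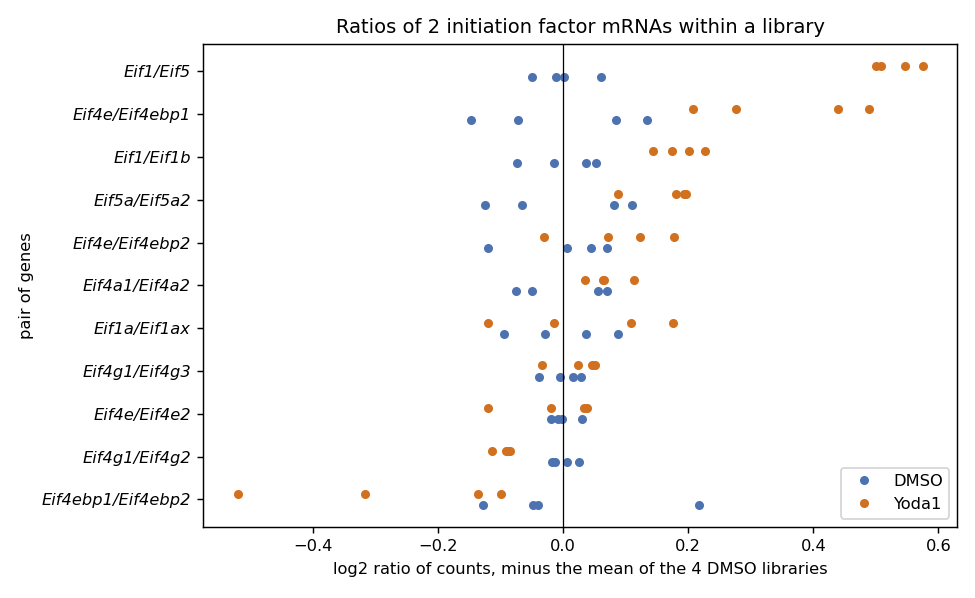
Log2 ratio of the counts of 2 members in each library, minus the mean of the 4 DMSO libraries, for the 11 pairs tested. Yoda1 points lie apart from all DMSO points for Eif1/Eif5, Eif4e/Eif4ebp1, Eif1/Eif1b and, on the lower side, Eif4g1/Eif4g2.

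Libraries of the same group differed in the level of many members at once. The median member lay 0.032 above the group mean (log2) in DMSO replicate 1 and -0.037 from it in DMSO replicate 3. The median of all genes tested stayed within 0.005 of 0 in every library, near where TMM scaling sets it. A median of 52 members also scatters more than one of all genes. DMSO replicate 1 held the highest DMSO value of 26 of 52 members, against 30.1% of all genes tested, and DMSO replicate 3 held the lowest of 27 (51.9% against 26.3%). In the Yoda1 group replicate 3 held the highest value of 25 members (48.1% against 28.8%) and replicate 2 the lowest of 23 (44.2% against 25.3%). For the eIF3 subunits the medians were 0.052 in DMSO replicate 1 and -0.043 in DMSO replicate 3, more than the median eIF3 difference of 0.031 between the groups. Which property of these libraries this follows was not tested.

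**Figure D5:**
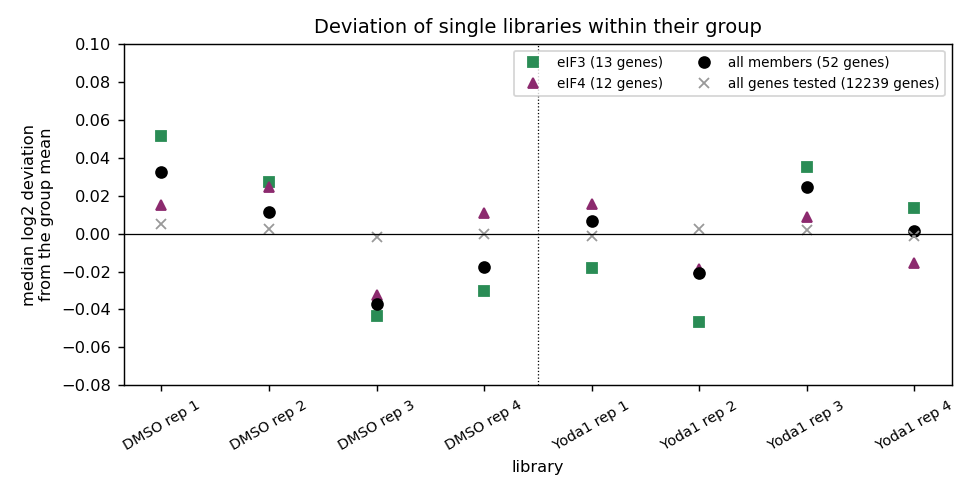
Median log2 deviation of each library from its group mean for eIF3, eIF4, all 52 members and all genes tested. All genes stay within 0.005 of 0, near where TMM scaling sets them, while the members reach 0.032 in DMSO replicate 1 and -0.037 in DMSO replicate 3.

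Genes that act with the initiation factors were read from the same fit. Of 28 tested partners in initiation, 2 rose and 0 fell, which is 7.14% called against 10.9% of all genes tested. Ddx3x, a helicase that helps structured leaders through scanning, rose from 472 ± 13.9 to 525 ± 9.89 CPM (SD, n = 4), or 0.15 on the log2 scale (SE 0.0346, edgeR adjusted p = 0.00311). Bzw1, an eIF5-mimic protein, was called higher at 392 ± 11.8 against 422 ± 2.87 CPM (log2 fold change 0.11, SE 0.0343, adjusted p = 0.0413). The call of Ddx3x held in all 15 other settings, while that of Bzw1 was lost in 9, including the fits without DMSO replicate 2 (adjusted p = 0.129) or 3 (0.112) or without Yoda1 replicate 1 (0.112), 2 (0.0747), 3 (0.0628) or 4 (0.0879), in a range of 0.0207 to 0.147. Pabpc1, the poly(A)-binding protein that contacts eIF4G, had 0.079 (adjusted p = 0.131), and Pdcd4, an inhibitor of eIF4A, had -0.10 (0.0967). Of 21 genes of the mTOR and MNK pathways, which act on the 4E-BPs and eIF4E, 0 were called in either direction by edgeR, and Mtor had 0.048 (0.589).

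Of 16 tested genes of the eIF2 kinase pathway, 5 were called, in both directions (31.2%, against 10.9% of all genes tested). The list holds regulators of the kinases and phosphatase subunits as well as downstream genes. It was drawn up with earlier results of these data known, so its share is no test of the pathway. Atf4, the transcription factor whose mRNA is translated when eIF2 is phosphorylated, fell from 237 ± 8.77 to 210 ± 8.26 CPM (SD, n = 4; log2 fold change -0.18, edgeR adjusted p = 0.00224). Trib3 (-0.55, 0.000329) and Asns (-0.18, 0.0054), both known targets of ATF4, fell as well, and Ddit3 had -0.22 (0.0826). Atf3 and Ppp1r15a, also known targets of ATF4, moved the other way. Atf3 rose from 103 ± 3.04 to 133 ± 0.848 CPM (log2 fold change 0.37, edgeR adjusted p = 4.23e-08). Ppp1r15a, which encodes the subunit that directs a phosphatase to eIF2, rose from 25.4 ± 1.55 to 33.1 ± 3.58 CPM (0.38, 0.000421). Among 21 elongation and termination factors 0 rose and 2 fell, which is 9.52% called, close to the 10.9% of all genes tested. Eef2k, the kinase that inhibits the elongation factor eEF2, fell from 44.3 ± 1.22 to 32.2 ± 2.04 CPM (log2 fold change -0.45, SE 0.0556, edgeR adjusted p = 9.11e-07), and Gspt2 fell by 0.43 (adjusted p = 0.0379) on 63 to 111 counts with overlapping groups. The 5 calls of the eIF2 kinase pathway and that of Eef2k held in all 15 other settings. That of Gspt2 was lost in 6 (adjusted p 0.0246 to 0.131 over the 15), including the fits without DMSO replicate 2 (0.0927) or 4 (0.113) or without Yoda1 replicate 2 (0.120) or 4 (0.131).

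Promoter windows, from 250 bases before to 50 after the start, were available for 41 members in RefSeq (GRCm38.p6) and were searched for motifs on both strands. A gene was counted once if any of its windows held the motif. CACGTG, the E-box bound by MYC and related factors, was found for 10 members (24.4%), against 11.8% of 9319 tested genes. These members were Eif1b, Eif3a, Eif3f, Eif3k, Eif4a1, Eif4e, Eif4g1, Eif4h, Eif5a and Eif5a2. CCGGAAGT, an ETS motif, was found for 8 members (19.5% against 9.43%). TGANTCA, an AP-1 motif, was found for 4 (9.76% against 6.01%), which were Eif1, Eif2ak3, Eif3f and Eif3l. TGACGTCA, a cyclic AMP response element, was found for 0 members (against 3.72%), which says only that these letters are not in these windows. A motif match is a description of the sequence.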

How the data were processed

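Poly(A) mRNA was sequenced from 8 libraries of cultured lung ILC2s, 4 with Yoda1 and 4 with DMSO. For each library the authors deposited 1 table of raw counts for 23183 gene symbols, not normalized. The submitters' processing notes name TopHat and mm10, and the study's methods list Cufflinks, BBMap, FASTX Trimmer and FastQC. Their versions, the annotation and whether the counting used strand are not given in the sources used here, so reads of near copies and overlapping genes may be shared. The kit was directional.

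Genes were filtered with filterByExpr in edgeR 4.0.16 (minimum count 10, minimum total 15) under R 4.3.3, leaving 12239, scaled by TMM (factors 0.988 to 1.01) and compared over all 8 libraries with the quasi-likelihood test (robust) and Benjamini-Hochberg adjustment at 0.05. CPM are of the TMM-scaled library, except for cell type markers, where they are of the unscaled library total. Replicate libraries differed by more than counting noise (chi-square per gene 2.04 to 6.94). Ratios of 2 members used log2 counts with 0.5 added and a two-sided exact permutation test, adjusted over 11 pairs. Positions, transcripts and start codons came from GENCODE M21 (GRCm38) and near copies from blastn 2.17.0. The 250 plus 50 base promoter windows came from RefSeq (GRCm38.p6).

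Members, pairs and gene lists were chosen with earlier results of these data known. Every member could be named, with full values for those called or not overlapping between groups, and from other lists the called genes plus Mtor, Pabpc1, Pdcd4, Atf4 and Ddit3. Emd, Serp1, D830035M03Rik, AC115631.1 and Snora28 were named because they share sequence with a member. The alternatives were limma-voom (limma 3.58.1), DESeq2 1.42.0, upper-quartile factors, scaling by library size only, at least 10 counts in every library, no filter, the replicate number as a block, each library left out, no pseudocount, and length over all exons. Reading the other lists under these settings was added after seeing the data. The test was tested on simulated data, in which it recovered most changed genes and more of its calls were false than the adjustment threshold names. The changed genes there were given a log2 fold change larger than that of any member. Recovery of differences as small as those of the members was not tested. Counts are of reads. Standard errors and p-values include the spread between these libraries, which may be technical, as well as counting error.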

Additional observations from a re-analysis of the deposited data

Results flagged for a closer look

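In 6 of 128 groups of 4 libraries 1 library stood apart by Dixon's 95% criterion, where chance gives about 6.4. Eif1a was high in DMSO replicate 4 (117.8 CPM, nearest other 110.1). Eif2ak2 was low in DMSO replicate 1 (89.9 CPM, nearest 99.4). Eif4a2 was high in Yoda1 replicate 1 (293 CPM, nearest 280.1), and Eif5b was high in DMSO replicate 2 (275 CPM, nearest 247.0). Eif5, the changed member among these, was low in Yoda1 replicate 2 (299 CPM, nearest 302.0), in a group whose 4 libraries lay within a few CPM. The log2 ratio of Eif5a to Eif5a2 was low in Yoda1 replicate 2 (4.82, nearest 4.91).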

How the results depend on the processing

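For the 11 members with full values, 142 of 165 alternative values stayed on the same side of the threshold, 21 calls of Eif1b, Eif2a or Eif4ebp1 were lost, 2 were gained and 0 changed sign. The 3 members called higher became 1 with library size only, 1 with upper-quartile factors and 1 with the replicate block, and 1 to 6 with 1 library left out. The 2 called lower became 4 with upper-quartile factors, and 1 to 2 with 1 library left out. The members' median log2 fold change of 0.019 turned to -0.0026 with library size only and -0.012 with upper-quartile factors, and ran from 0.00013 without DMSO replicate 3 to 0.037 without DMSO replicate 1. The cause of these changes was not tested. Of all calls 55.5% were higher, against 40.6% with library size only and 34.5% with upper-quartile factors, which moved the median of all genes from -0.0053 to -0.027 and -0.036. Over all genes the 1331 calls became 893 to 1484 with 1 library left out and 1038 with DESeq2. The 4 ratios without overlap became 4 to 6 with 1 library left out, where the smallest exact p is 0.0571.

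No pairing of the libraries by replicate number was seen. Same-numbered libraries had correlations of deviations of 0.048, 0.071, -0.028 and 0.00023, and differently numbered ones ran from -0.125 to 0.077. With the replicate block 966 genes were called, and Eif1b (edgeR adjusted p = 0.0662) and Eif2a (0.0548) were not. An exact sign-flip permutation test of the ratios over same-numbered libraries cannot give less than p = 0.125. Members with few counts, such as Eif4ebp3, had the widest errors.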
